A study of Homo sapiens with 8 samples.

Results

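The RNA helicases of the DDX and DHX families were examined in K562 cells, an established human chronic myeloid leukaemia line with erythroid features. A gene belonged to the set if its single annotated symbol was DDX or DHX followed by a number and at most 1 letter, which gave 51 of the 19775 genes on the array. Where a gene had several probe sets, the gene was read from the one whose mean over the 8 arrays was highest. That mean ignores the groups, and levels are given here as a description of the probe set chosen. Cells stably transfected with p42 C/EBPα-ER, the full-length granulocyte transcription factor C/EBPα fused to the oestrogen receptor, received 1 µM beta-estradiol for 6 h (4 arrays) or ethanol vehicle control for 6 h (4 arrays). Both groups carried the fusion and were kept in medium low in oestrogenic compounds (no phenol red, stripped serum). Estradiol lets such a fusion enter the nucleus. The labels name no cells that lack the fusion, so an effect of estradiol itself and one of the fusion cannot be told apart, and the sources used here do not say whether the line is 1 clone.

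DDX and DHX proteins bind RNA and use ATP to part short duplexes or strip proteins from RNA, and are named after the amino acids D-E-A-D or D-E-A-H of their ATPase core. Different members serve different steps in the life of RNA. A large set works in the nucleolus, where ribosomal RNA is transcribed, trimmed and packed with proteins, and others remodel the spliceosome, carry messages through the nuclear pore, help ribosomes scan messages, or sense viral RNA. Growing leukaemia cells make many ribosomes, and the transcription factor MYC is a well-known driver of that production.

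The arrays were alike in scale, with medians of 4.97 to 5.08 and lower quartiles of 3.67 to 3.74 on the log2 scale. Over all genes the arrays correlated at 0.9971 to 0.9986 within the estradiol group, at 0.9951 to 0.9985 within the vehicle group and at 0.9907 to 0.9940 between groups. Vehicle replicate 2 stood slightly apart, at 0.9951 to 0.9964 with the other vehicle arrays, which correlated at 0.9977 to 0.9985 with each other. Of the markers of K562 cells, the erythroid factors GATA1 and KLF1 averaged 9.02 and 9.35 with estradiol and 9.92 and 10.07 with vehicle. In the same arrays the embryonic globin HBE1 averaged 13.34 with estradiol and 13.51 with vehicle, and the transferrin receptor TFRC 13.08 and 13.00. Of these 4, GATA1, KLF1 and HBE1 fell and TFRC was not called. HBE1 fell on 1 of its 2 probe sets, the other showed 0.02, and their mean was not called (−0.08). The mean of the 4 markers ran from 11.19 to 11.21 over the estradiol arrays and from 11.60 to 11.65 over the vehicle arrays. The part of this in the helicase values was not tested. The T cell, B cell and monocyte markers CD3E, MS4A1 and CD14 averaged 5.20, 4.06 and 4.52 with estradiol and 5.24, 4.12 and 4.45 with vehicle. The epithelial marker EPCAM averaged 10.81 with estradiol and 10.98 with vehicle, and the fibroblast marker COL1A1 7.62 and 7.67, and neither was called. The labels call the samples biological replicates without saying how the cultures were separated, so p-values cover only the spread among these samples, which may be technical.

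Helicase transcripts after 6 h of estradiol were set against those after vehicle. Of the 51 helicases 16 fell, 1 rose and 34 were not called (limma, Benjamini-Hochberg adjusted p below 0.05 over all genes). The falls count DDX17, whose other probe sets went the other way. They numbered 9 with each array centred on its median, 9 with the probe sets of each gene averaged, and up to 23 in other settings. Called genes made up 33.3% of the helicases and 17.9% of all genes. The helicases were brighter, at a mean of 8.20 with estradiol and 8.30 with vehicle, against 6.37 and 6.39 for all genes. When only genes with a mean of at least 6 were tested, calls numbered 2013 higher and 2278 lower, against 1639 and 1899 over all genes. Fewer genes thus gave more calls, so the share called among brighter genes in that fit was above 17.9%. Shares among genes of like level were not computed, here or for the lists below. Part of the excess over all genes may therefore go with brightness. Among all genes 9.60% were called lower and 8.29% were called higher. Nucleolar helicases made up 9 of the 16 falls, led by DDX10, DDX31, DHX37 and DHX33, each about 1.4 times lower. The single rise was DHX29, a helicase of translation initiation, at 1.73-fold. In 23 helicases (45.1%) no value of one group lay within the range of the other, 22 of them lower with estradiol, a pattern that 24.1% of all genes showed in either direction and 12.9% in the lower direction. The median log2 difference was −0.11 over the helicases and −0.03 over all genes. In total RNA from a whole culture, fewer cells that express a gene and less of its RNA per cell cannot be told apart.

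**Figure D1:**
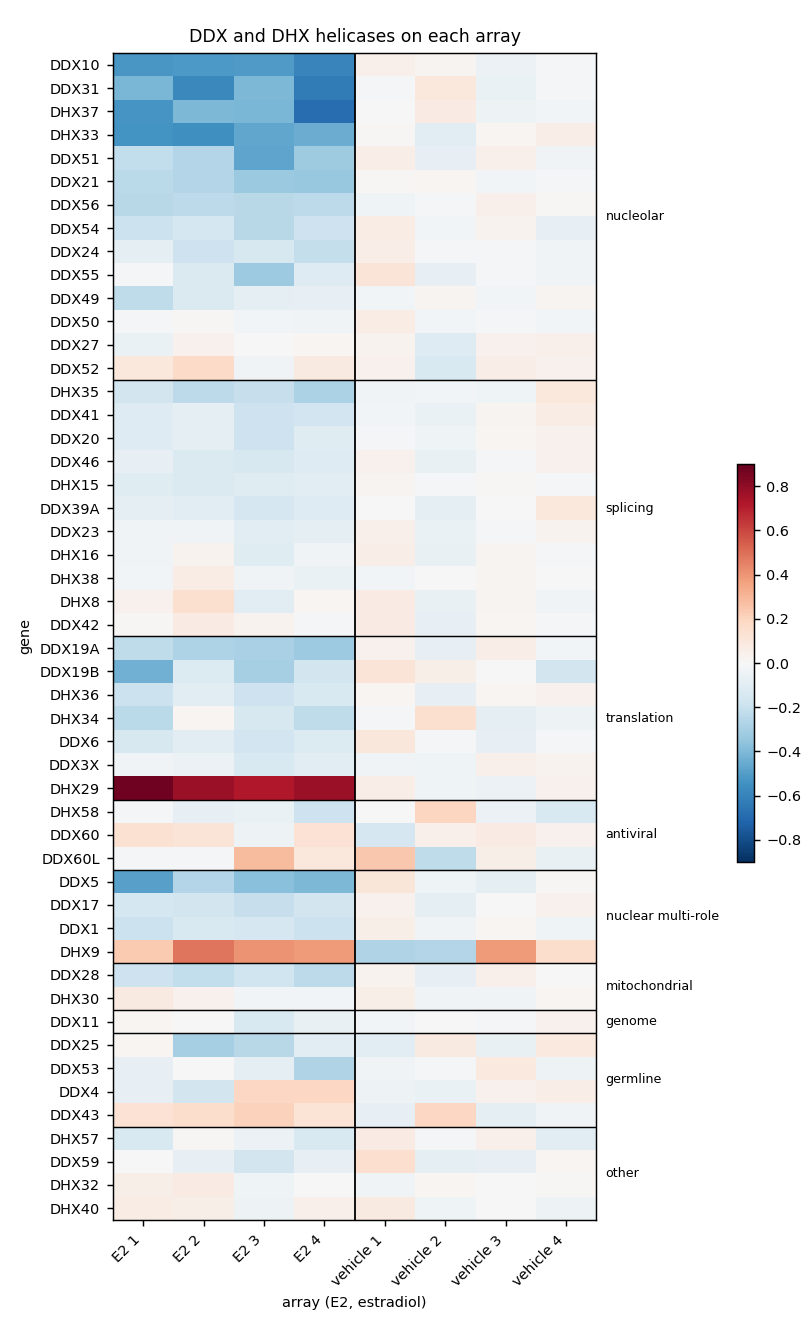
Log2 value on each array (columns, E2 for estradiol) minus the mean of the 4 vehicle arrays, for 50 of the 51 helicases (rows), grouped by role and ordered by difference within each role. The upper nucleolar rows are blue on all 4 estradiol arrays, DHX29 is red on all 4, and DHX9 differs among the vehicle arrays themselves.

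Most nucleolar helicases fell. Of 14 measured, 9 were called lower, 0 higher and 5 neither, and in 10 (71.4%) every estradiol value lay below every vehicle value. Among all genes 9.60% were called lower, and 12.9% had every estradiol value below every vehicle value. The list median was −0.22 on the log2 scale, against −0.03 for all genes. The mean of the 14 log2 values ran from 8.87 to 8.91 over the estradiol arrays and from 9.12 to 9.17 over the vehicle arrays. Without vehicle replicate 2 the falls numbered 8, and with every array left out in turn they numbered 7 to 9. When the probe sets of each gene were averaged, 5 falls were left.

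Helicases of the small ribosomal subunit are described first. DDX10, whose yeast counterpart releases a small nucleolar RNA from the ribosomal RNA precursor, showed the largest fall of all members. Its log2 values were 9.06, 9.07, 9.07 and 8.99 on the estradiol arrays and 9.63, 9.61, 9.53 and 9.56 on the vehicle arrays. Every estradiol value lay below every vehicle value, and the difference was −0.54 ± 0.04 (SE, limma adjusted p = 3.31e-05), or 1.45-fold lower. Its other probe set showed 0.04, and the mean of both gave −0.25 at adjusted p = 0.0505. DHX37 frees the same precursor from another guide RNA. It had log2 values of 7.69, 7.82, 7.81 and 7.54 with estradiol and 8.22, 8.30, 8.17 and 8.20 with vehicle. The groups did not overlap, with estradiol replicate 4 the lowest, and the difference was −0.51 ± 0.07 (adjusted p = 0.000830). Both its probe sets were called lower. The other measured members of this branch were not called. DDX49 differed by −0.13 ± 0.05 (adjusted p = 0.0940) with groups that did not overlap, and 1 of its 3 probe sets was called lower (−0.20). DDX52 differed by 0.08 ± 0.06, and 1 of its 4 probe sets was called higher (0.19).

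Among 7 measured helicases of the large subunit 5 fell (71.4%), beside 9.60% of all genes called lower. DDX31, known from its yeast counterpart to act on early precursors of that subunit, had log2 values of 8.01, 7.85, 8.03 and 7.80 with estradiol and 8.41, 8.52, 8.37 and 8.41 with vehicle. The gap between the groups exceeded the spread within either, at −0.51 ± 0.06 (SE, adjusted p = 0.000605), and 2 of its 3 probe sets were called lower. DDX51, which in mouse cells helps mature the large ribosomal RNA, had 6.97, 6.94, 6.72 and 6.88 with estradiol and 7.26, 7.13, 7.24 and 7.16 with vehicle. The groups did not overlap and the difference was −0.32 ± 0.06 (adjusted p = 0.00702), but its 3 probe sets ran from −0.32 to 0.22 and their mean was not called (−0.12). DDX56 had 9.20, 9.22, 9.21 and 9.22 with estradiol and 9.41, 9.44, 9.49 and 9.46 with vehicle. The estradiol arrays of DDX56 were within 0.02 of each other, and it fell by 0.24 on the log2 scale (SE 0.04, adjusted p = 0.00203). Its other probe set showed −0.15, not called, and the mean of both was not called either (adjusted p = 0.0543). DDX54 and DDX24 fell by 0.20 and 0.16. Both calls were fragile. That of DDX24 (adjusted p = 0.0432) was lost in 7 of the 8 fits that left out 1 array, at adjusted p up to 0.130. That of DDX54 was lost in 2 of them. The other probe set of DDX24 showed 0.02, and the other probe sets of DDX54 showed −0.01 and −0.19, none called. Both genes also lost the call with probe sets averaged, with median centring and with the replicate block. DDX55 differed by −0.15 ± 0.07 and DDX27 by 0.00 ± 0.05, and neither was called.

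Of 3 measured nucleolar helicases tied to ribosomal RNA transcription or other nucleolar roles, DHX33 and DDX21 fell and DDX50 was not called. Among all genes 9.60% were called lower, and a list of 3 is too short to read its share against that. DHX33, which takes part in transcription of ribosomal DNA by RNA polymerase I, had log2 values of 8.99, 8.98, 9.07 and 9.08 with estradiol and 9.54, 9.44, 9.55 and 9.59 with vehicle. No value overlapped, and the difference was −0.50 ± 0.05 (SE, adjusted p = 0.000118), with −0.47 on its other probe set. DDX21, which links RNA polymerase I transcription with the small nucleolar RNAs, had 11.71, 11.69, 11.61 and 11.61 with estradiol and 11.96, 11.97, 11.93 and 11.94 with vehicle. The groups of DDX21 stood apart and the difference was −0.30 ± 0.04 (adjusted p = 0.00107), with −0.26 on its other probe set.

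DDX50, the nucleolar paralogue of DDX21, had 10.26, 10.29, 10.25 and 10.24 with estradiol and 10.34, 10.25, 10.26 and 10.25 with vehicle. These groups overlapped, and the difference was −0.02 ± 0.04. Within each array DDX21 minus DDX50 was 1.39 ± 0.04 (SD, n = 4) with estradiol and 1.67 ± 0.04 with vehicle. That change of −0.28 had p = 0.0286 in an exact two-sided permutation test, the smallest p that 4 against 4 arrays allow. It became 0.0571 after Benjamini-Hochberg adjustment over the 4 paralogue pairs compared, so it did not pass 0.05. With so few arrays a pair could pass only if most of the pairs also reached that smallest p. The failure therefore says nothing about the size of the change. In the same comparison DDX19A minus DDX19B changed by −0.02 (exact permutation p = 0.800), DDX60 minus DDX60L by −0.01 (p = 0.971) and DDX5 minus DDX17 by −0.21 (p = 0.0286). The adjusted p was 0.971 for the DDX19 and the DDX60 pair and 0.0571 for DDX5 and DDX17, so no pair passed. Such a difference within an array shows unequal change of the 2 probe sets compared only. DDX17 was read here from its probe set of highest mean, which fell, while its other probe sets showed 0.28 to 0.58. The DDX5 and DDX17 value therefore depends on that choice.

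**Figure D2:**
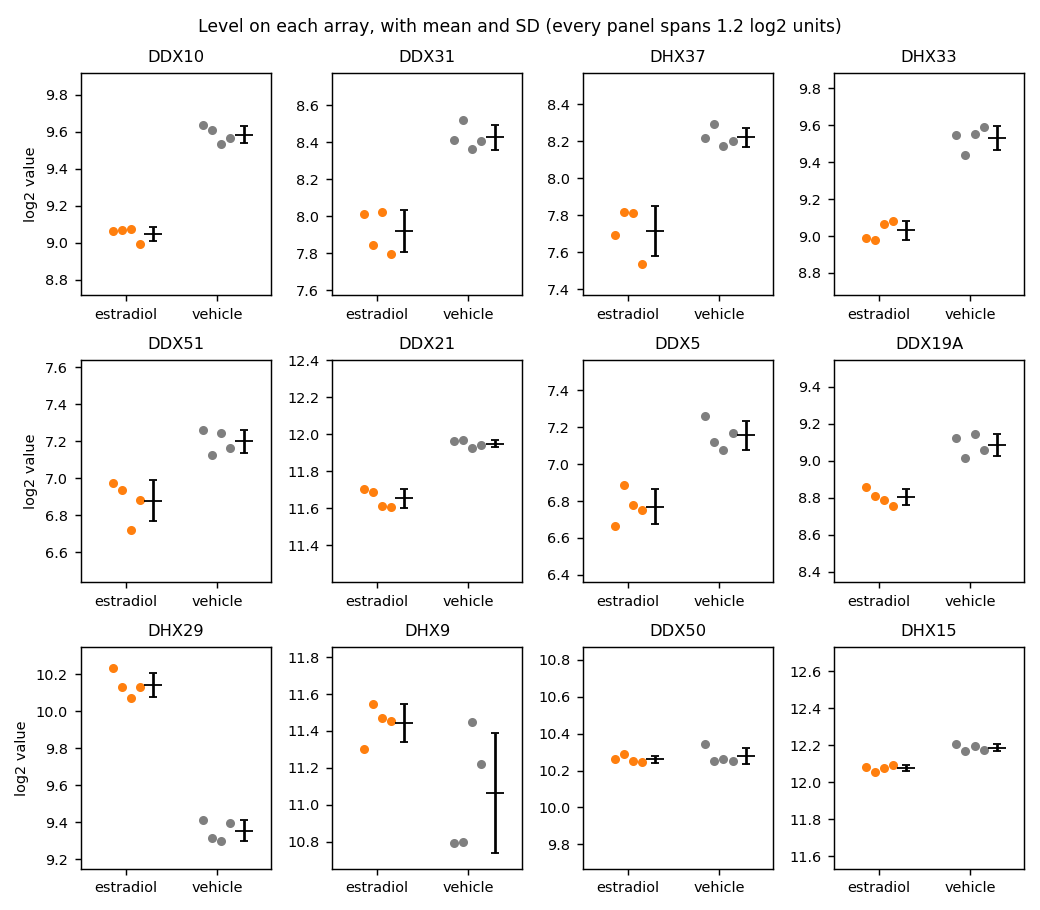
Log2 value on each array (points) for 12 helicases, estradiol left and vehicle right in each panel, with the mean and SD of 4 arrays beside the points. DDX10, DDX31, DHX37, DHX33, DDX51, DDX21, DDX5, DDX19A and DHX15 lie lower on every estradiol array, DHX29 lies higher, and DHX9 and DDX50 overlap between groups.

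Promoter sequences are shown because several of the falling nucleolar helicases hold the letters CACGTG close to their start site, a short E-box motif that MYC with MAX and other basic helix-loop-helix factors can bind. MYC itself fell to 10.89, 10.94, 10.92 and 10.91 with estradiol, against 12.08, 12.09, 12.11 and 12.13 with vehicle. The part of MYC in the helicase values was not tested. Sequences are those of RefSeq on GRCh38.p14, where 47 of the 51 helicases had at least 1 window of 250 bases before to 50 bases after a start site. The 4 without a window were DHX33, which fell, and DDX49, DDX52 and DHX58, which were not called. CACGTG reads the same on both strands. It stood in a window of 10 of these 47 helicases (21.3%), and in a window of 10.9% of all 15384 genes of the comparison that had one. Among helicases with a window, CACGTG was present in 6 of 15 that fell (DDX17 counted, which lacks it). These include 4 of 8 nucleolar ones that fell. It was present in 4 of 31 that were not called. Genes with several windows had more chances to hold it, and counted by window the shares were 15.6% of 64 helicase windows and 7.26% of all 35116. A match describes the letters only and is no evidence of binding.

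The first 3 stretches below are the 100 bases before the start site of nucleolar helicases that fell, with CACGTG in capitals, at 31, 22 and 61 bases before the start for DDX21, DDX31 and DDX54. The stretch of DHX37 is 30 bases that begin 21 bases past its start. DDX10, which fell most, and DHX29, which rose, have no CACGTG in their windows and are shown for contrast. They lie at chr10:68956547-68956646 (plus strand, DDX21), chr9:132669984-132670083 (minus, DDX31), chr12:113185479-113185578 (minus, DDX54), chr12:124989082-124989111 (minus, DHX37), chr11:108664969-108665068 (plus, DDX10) and chr5:55307695-55307794 (minus, DHX29).
DDX21: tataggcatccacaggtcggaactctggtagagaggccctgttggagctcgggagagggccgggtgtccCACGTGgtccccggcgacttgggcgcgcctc
DDX31: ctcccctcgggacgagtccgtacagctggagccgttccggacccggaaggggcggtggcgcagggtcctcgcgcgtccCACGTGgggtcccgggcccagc
DDX54: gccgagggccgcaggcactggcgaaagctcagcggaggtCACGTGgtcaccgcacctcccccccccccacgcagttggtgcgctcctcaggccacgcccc
DHX37: ggagttggtggtctgggaaccCACGTGggc
DDX10: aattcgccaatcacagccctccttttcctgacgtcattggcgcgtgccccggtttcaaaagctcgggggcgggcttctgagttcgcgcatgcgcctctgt
DHX29: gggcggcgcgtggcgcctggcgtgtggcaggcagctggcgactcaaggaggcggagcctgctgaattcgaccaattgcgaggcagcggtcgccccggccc

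The other falling helicases with the motif were DDX5, at 30 bases before its start, and DHX35, with CACGTG at 184 and at 132 bases before its start. The helicases that held it and were not called were DHX32, DHX40, DHX34 and the germ cell helicase DDX25. The letters TTGCNNAA, a common form of the C/EBP site searched on both strands with no overlap with CACGTG, stood in windows of DDX27 and DDX42. They stood in 0 of the 15 helicases that fell and had a window, and in a window of 11.3% of all genes with one.

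Helicases of splicing showed small differences that mostly failed the test. Of 11 measured, 1 fell and 10 were not called, a share of 9.09% beside 17.9% of all genes, while 5 (45.5%) had estradiol values that all lay below the vehicle values, as 12.9% of all genes did. The list median was −0.11 on the log2 scale. DHX35, a component of late spliceosomes, had 6.83, 6.76, 6.79 and 6.71 with estradiol and 6.96, 6.97, 6.95 and 7.09 with vehicle. It fell by 0.22 on the log2 scale (SE 0.05, adjusted p = 0.0120), and 2 of its 3 probe sets were called lower. DHX15, which takes spliceosomes apart, had 12.08, 12.06, 12.08 and 12.09 with estradiol and 12.21, 12.17, 12.20 and 12.18 with vehicle, without overlap, at −0.11 ± 0.04 (adjusted p = 0.0725). DDX41, a spliceosomal helicase altered in some inherited myeloid leukaemias, differed by −0.14 ± 0.05 (adjusted p = 0.0711). DDX20, of the complex that builds small nuclear ribonucleoproteins, differed by −0.13 ± 0.04, and DDX46, which acts at the branch point, by −0.12 ± 0.04. The groups did not overlap in any of these 3.

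The other splicing helicases were not called either. DDX39A, close in sequence to DDX39B and active in splicing and message export, had 11.75, 11.74, 11.69 and 11.72 with estradiol and 11.83, 11.75, 11.84 and 11.93 with vehicle. Those groups overlapped, at −0.11 ± 0.05 (adjusted p = 0.169). DDX23, DHX16, DHX38, DHX8 and DDX42, which act at successive steps of spliceosome activation and catalysis or bind its branch point complex, differed by −0.06 to 0.03. A dim probe set of DHX8 was called lower (−0.37), beside 0.02 and −0.06 on the other 2. The count of splicing falls depended on the setting, with 0 when each array was centred on its median, 5 with cyclic loess and 6 when quantile normalization was repeated. DDX41, DDX20, DDX46 and DHX15 were each called lower in 6 of the 11 settings that kept all 8 arrays.

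**Figure D3:**
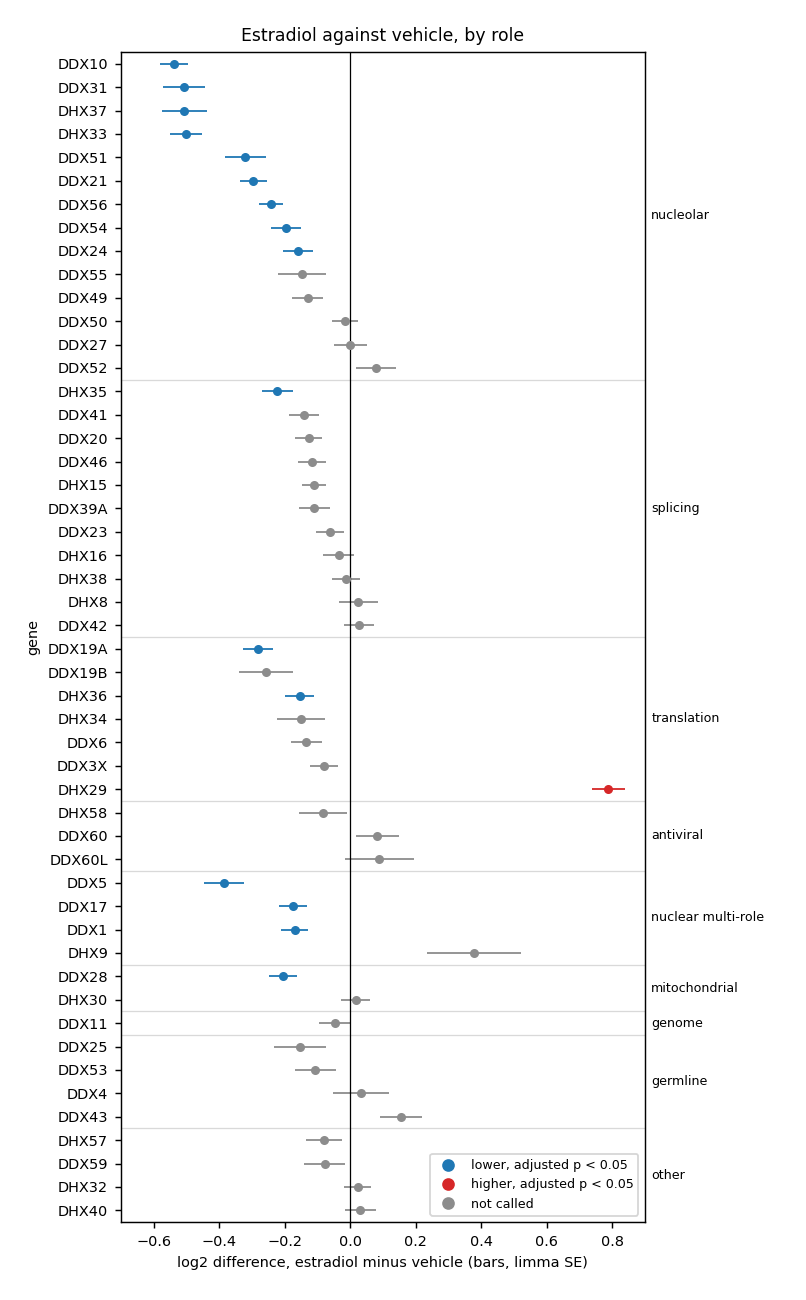
Log2 difference, estradiol minus vehicle (horizontal axis, bars for the limma SE), for 50 helicases grouped by role, blue where called lower, red where called higher and grey where not called. The 9 nucleolar falls reach from −0.54 to −0.16, while 10 of 11 splicing helicases are grey and lie between −0.14 and 0.03.

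Helicases of translation and cytoplasmic messages went both ways. Of 8 measured, 2 fell, 1 rose and 5 passed in neither direction, 37.5% called beside 17.9% of all genes. The median was −0.14, against −0.03 for all genes. DHX29 binds the small ribosomal subunit and helps it scan messages with structured leaders. Its log2 values were 10.23, 10.13, 10.07 and 10.13 with estradiol and 9.41, 9.31, 9.30 and 9.39 with vehicle. All 4 estradiol arrays lay above all vehicle arrays by more than the spread within either group, at 0.79 ± 0.05 (SE, adjusted p = 8.34e-06). The other probe set also rose, by 0.46, and the call held in every setting tried.

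DDX19A and DDX19B are near-identical helicases at the nuclear pore that release exported messages, so a probe set may read both. DDX19A had 8.86, 8.81, 8.79 and 8.76 with estradiol and 9.12, 9.01, 9.15 and 9.06 with vehicle. It fell by 0.28 without overlap (SE 0.05, adjusted p = 0.00259), on 1 of 3 probe sets, the others at −0.10 and −0.18. DDX19B differed by −0.26 ± 0.08 (adjusted p = 0.0689). DHX36, which unwinds G-quadruplexes, fell by 0.15 (SE 0.04, adjusted p = 0.0423), a call that was lost in 7 of the 8 fits that left out 1 array, at adjusted p up to 0.118.

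DDX6, which holds messages in storage and decay granules, had 9.10, 9.15, 9.08 and 9.13 with estradiol and 9.35, 9.23, 9.18 and 9.23 with vehicle. The groups did not overlap, by a narrow gap, and the difference of −0.13 ± 0.05 was not called (adjusted p = 0.0950). DDX3X, a helicase of translation initiation, had 11.33, 11.32, 11.23 and 11.27 with estradiol and 11.33, 11.33, 11.41 and 11.39 with vehicle. Its groups overlapped, at −0.08 ± 0.04 (adjusted p = 0.287), and 0 of its 6 probe sets were called. DHX34, a factor of nonsense-mediated decay, differed by −0.15 ± 0.07. The level of DDX3Y, a Y-linked gene that was counted among the 51 and not called, is not given here.

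Sensors and interferon-induced helicases of antiviral defence were not called in any setting tried. Of 3 measured, 0 passed adjusted p below 0.05 in limma, beside 17.9% of all genes, and 0 had an unadjusted p below 0.05. A list of 3 is too short to read its share against that of all genes. DHX58, a regulator of RNA sensing, had 5.06, 5.00, 5.01 and 4.89 with estradiol and 5.07, 5.26, 5.02 and 4.94 with vehicle, which overlapped (−0.08 ± 0.07, adjusted p = 0.532). DDX60 and DDX60L lay below the lower quartile of every array and differed by 0.08 ± 0.07 and 0.09 ± 0.11. No detection calls were used, so whether they were expressed is unknown. The sensor once named DDX58 carries the symbol RIGI in the annotation and was therefore no member. RIGI had 6.38, 6.40, 6.37 and 6.46 with estradiol and 6.69, 6.37, 6.32 and 6.55 with vehicle, which overlapped, at −0.08 ± 0.08.

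Of 4 nuclear helicases with several roles, DDX5 and DDX1 fell, DDX17 was called lower on its chosen probe set but not on others, and DHX9 was not called. Among all genes 9.60% were called lower. DDX5 and DDX17 are paralogues that act as coregulators of transcription and in RNA processing. DDX5 had 6.66, 6.89, 6.78 and 6.75 with estradiol and 7.26, 7.12, 7.08 and 7.17 with vehicle. It fell without overlap, by 0.39 on the log2 scale (SE 0.06, adjusted p = 0.00219), on its single probe set with 1 symbol. Another DDX5 probe set, shared with MIR5047 and MIR3064, was not analysed. DDX1, of the complex that joins spliced transfer RNAs, fell by 0.17 (SE 0.04, adjusted p = 0.0186) and lost its call in 3 of the 8 fits without 1 array.

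The probe sets of DDX17 went against each other. The one with the highest mean had 11.11, 11.10, 11.07 and 11.11 with estradiol and 11.31, 11.19, 11.27 and 11.31 with vehicle, and fell by 0.17 (SE 0.04, adjusted p = 0.0207). Of the other 4 probe sets 2 were called higher, at 0.58 and 0.44, and the remaining 2 showed 0.43 and 0.28. The mean of all 5 was 0.31 higher with estradiol (adjusted p = 0.0531), so no direction is given for DDX17 as a gene. The sources used here do not say which transcripts each probe set reads.

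DHX9, RNA helicase A, which resolves long duplexes in transcripts, had 11.30, 11.55, 11.47 and 11.45 with estradiol and 10.79, 10.80, 11.45 and 11.22 with vehicle. The vehicle arrays themselves were spread, with replicates 1 and 2 low and replicate 3 inside the estradiol range. The difference of 0.38 ± 0.14 was not called (adjusted p = 0.117), and without vehicle replicate 3 it was 0.50 (adjusted p = 0.0211). A second probe set showed 0.37 and the third −0.10.

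**Figure D4:**
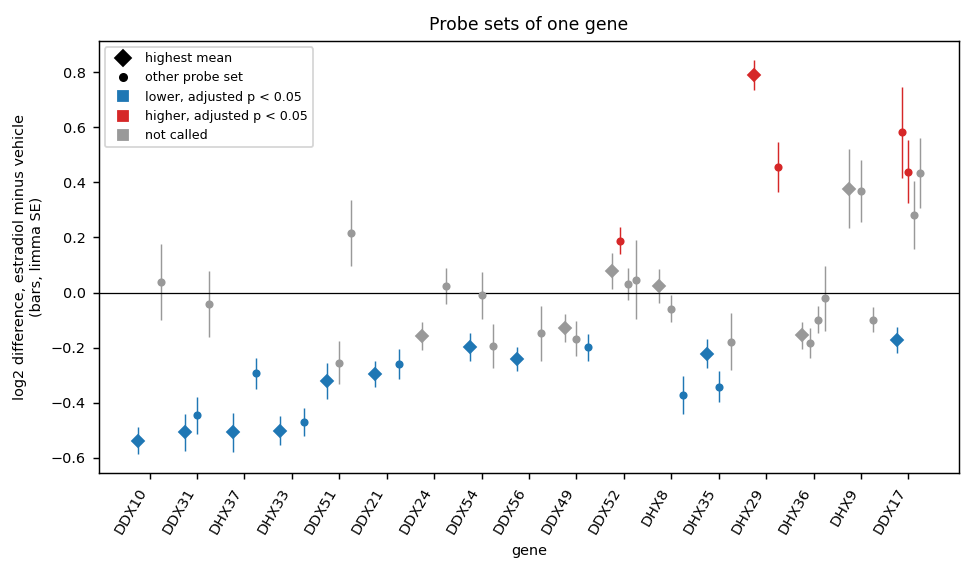
Log2 difference, estradiol minus vehicle (vertical axis, bars for the limma SE), for each probe set of 17 helicases, with a diamond for the probe set of highest mean and colours for calls adjusted over all probe sets. Both probe sets of DHX37, DHX33, DDX21 and DHX29 are called the same way, while DDX17 has 1 called lower and 2 called higher.

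Of 15 called helicases with several probe sets, 4 had all of them called the same way and 1 had probe sets called the opposite way, with calls adjusted over all probe sets, of which 13.1% were called. These 4 were DHX37, DHX33, DDX21 and DHX29. The mitochondrial helicase DDX28, which helps assemble the mitochondrial ribosome, fell by 0.21 (SE 0.04, adjusted p = 0.00917), on 1 of 4 probe sets. It lost the call with median centring and with probe sets averaged (−0.12, limma adjusted p = 0.0843). DHX30, of mitochondrial RNA granules, differed by 0.02 ± 0.04. DDX11, a DNA helicase of chromatid cohesion with near-identical copies in the genome, differed by −0.05 ± 0.05. The germ cell helicases DDX4, DDX25, DDX43 and DDX53 lay below the lower quartile of every array, differed by −0.15 to 0.15 and were not called. DHX57, DDX59, DHX32 and DHX40, which were put in no role, differed by −0.08 to 0.03. In all, 6 helicases lay below the lower quartile on every array.

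Helicases of related families under other names were measured too. Of 16, 1 fell and 1 rose, 12.5% beside 17.9% of all genes, with a median of 0.02 on the log2 scale. SUPV3L1, the mitochondrial RNA helicase that works with the degradosome, had 8.76, 8.67, 8.58 and 8.64 with estradiol and 9.06, 9.09, 8.97 and 9.02 with vehicle. It fell without overlap, by 0.38 (SE 0.05, adjusted p = 0.000936). MTREX, which feeds RNA to the nuclear exosome, had 10.91, 10.87, 10.83 and 10.86 with estradiol and 10.63, 10.50, 10.53 and 10.59 with vehicle, and rose by 0.30 ± 0.04 (adjusted p = 0.00139). EIF4A3, of the exon junction complex, differed by −0.14 ± 0.05 (adjusted p = 0.0728), the splicing helicase SNRNP200 by −0.04 ± 0.06 and the viral RNA sensor IFIH1 by 0.03 ± 0.10.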

How the data were processed

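RNA of 8 samples labelled biological replicates, 4 with estradiol and 4 with vehicle, was measured on arrays. Sample titles gave the groups and the replicate numbers. The authors deposited log2 values, and the submitters' processing notes name RMA for them without a version. RMA scales arrays to each other, which can hide a change shared by most genes, and the array medians still ran from 4.97 to 5.08. Chip definition and build were not given in the sources used. Of 54675 probe sets, 41097 had 1 symbol in the platform annotation, 1801 several and 11777 none listed, and symbols were checked through gene identifiers in RefSeq (0 changed). DDX39B and DDX47 shared their probe sets with other symbols and, like DDX18, were not analysed here.

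Estradiol minus vehicle was tested over 19775 genes with limma 3.58.1 (lmFit, eBayes) in R 4.3.3, two-sided, with no filter and no block. Benjamini-Hochberg adjustment ran over all genes, with calls below 0.05. Probe sets were also tested one by one. Paralogue pairs were compared with exact permutation tests over the 70 splits of the arrays (scipy 1.17.1). The script was tested on simulated data, where 20% of changes of 0.25 and 76% of changes of 0.5 on the log2 scale were called. A helicase that was not called may therefore still differ by such an amount. Alternatives covered scaling, dim genes, probe set summary, variance model, array weights, the replicate number as a block, single arrays left out and a stricter threshold. The number of arrays limits precision. Members and role lists were chosen with earlier results of these data known. Values on every array are given for the 10 largest falls, the rise and a fixed list of helicases. Values by array for DDX50, DHX15, MYC, UTP14A, SUPV3L1 and MTREX were added after they had been seen. Figures were drawn with matplotlib 3.10.9.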

Additional observations from a re-analysis of the deposited data

Results flagged for a closer look

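In 9 of 100 groups of 4 arrays, over 50 helicases, 1 array lay far from the other 3 relative to the range of the group. Chance alone flags about 1 in 20 groups. DDX10, the largest fall, read 8.99 in estradiol replicate 4, against 9.06 to 9.07 on the other estradiol arrays, and still lay below every vehicle value. DHX35 read 7.09 in vehicle replicate 4, against 6.95 to 6.97 on the other vehicle arrays. DHX36 read 10.56 in vehicle replicate 2, against 10.66 to 10.68. DDX27 read 9.30 and DDX52 read 7.81 in vehicle replicate 2, against 9.45 to 9.46 and 7.99 to 8.01 on the other vehicle arrays. DDX50 read 10.34 in vehicle replicate 1, against 10.25 to 10.26, and without its high value the vehicle arrays of DDX50 lie within the range of the estradiol arrays. DHX40 read 8.94 in estradiol replicate 3, against 9.03 to 9.05. The dim helicase DDX60 read 2.79 in estradiol replicate 3, against 2.95 to 2.97, and 2.68 in vehicle replicate 1, against 2.87 to 2.90.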

How the results depend on the processing

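Of the 17 called helicases, 7 kept their call in all 19 alternative settings (DDX19A, DDX21, DDX31, DDX5, DHX29, DHX33 and DHX37) and 10 lost it in at least 1, while 10 of the others were called in at least 1. DDX5 had 1 probe set with 1 symbol, so averaging probe sets could not change its value. Over all genes an adjusted p below 0.01 left 1040 rises and 1139 falls, against 1639 and 1899. Helicase falls numbered 16, against 9 with each array centred on its median, 9 with the mean of all probe sets and 10 with an adjusted p below 0.01. They numbered 22 with repeated quantile normalization, 21 with cyclic loess, 23 with a mean of at least 5 or 6 required, 23 with a variance trend and robust fit and 21 with array weights. Helicase rises numbered 2 with array weights and 3 with every probe set on its own, where nucleolar rises numbered 1. Nucleolar falls were 5 with the mean of all probe sets. Splicing falls were 0 with median centring, 6 with repeated quantile normalization, 5 with cyclic loess, 5 with a mean of at least 5 or 6 required, 6 with a variance trend and robust fit, 6 with array weights, 2 with every probe set on its own and 0 with an adjusted p below 0.01. Falls of translation helicases were 1 with median centring, 4 with a mean of at least 5 or 6 required, and 1 with probe sets averaged, with every probe set on its own or with an adjusted p below 0.01. With the mean of all probe sets DDX17 turned to 0.31, and the medians of the nucleolar and translation lists were −0.16 and −0.03. Averaging takes in the other probe sets given above by gene. Median centring adds the same amount to every difference, and the nucleolar median went from −0.22 to −0.19. The filters test fewer genes. Why the other settings shifted the counts was not tested.

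Leaving out 1 array at a time gave 11 to 17 helicase falls, 1 to 2 rises, 7 to 9 nucleolar falls, 1 to 3 splicing falls and 1 to 2 translation falls. The second rise was DDX43 without vehicle replicate 2 and DHX9 without vehicle replicate 3. Without vehicle replicate 2 the splicing falls numbered 3, and translation falls were 1 without any one estradiol replicate or vehicle replicate 1 or 3.

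The labels do not say whether the shared replicate numbers pair the samples. Same-numbered arrays had correlations of −0.048, −0.209, 0.086 and 0.111 between their deviations from the group means. For differently numbered arrays these ran from −0.153 to 0.218. With the replicate block the helicase falls numbered 10, nucleolar falls 7, splicing falls 0 and translation falls 1, against 1366 falls and 1232 rises over all genes.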

Other observations

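Proteins that activate or hold RNA helicases were also measured, as a list of 34 cofactors of which 31 were measured. Of these 5 fell, 4 rose and 22 were not called, 29.0% called beside 17.9% of all genes, with a median of 0.01 on the log2 scale. UTP14A, the nucleolar activator of DHX37, had 9.37, 9.40, 9.37 and 9.34 with estradiol and 9.81, 9.77, 9.78 and 9.75 with vehicle. It fell by 0.41 (SE 0.04, limma adjusted p = 9.30e-05), with groups far apart, as DHX37 did. NOM1, a nucleolar partner of EIF4A3, fell by 0.24, PINX1, a G-patch partner of DHX15, by 0.25 and GEMIN4, which binds DDX20, by 0.21. TRIM25, a ubiquitin ligase that acts on RIGI, fell by 0.24. Its other probe set showed 0.00, and the mean of both was not called (−0.12). UTP14A, NOM1, PINX1 and GEMIN4 stayed called lower with probe sets averaged.

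Rises were found in 4 cofactors. GPKOW, a G-patch partner of DHX16 in the spliceosome, rose by 0.26 ± 0.04 (adjusted p = 0.00175), and RBM5, a splicing regulator that binds DHX15, by 0.22 ± 0.04. LSM14A, which binds DDX6 in message storage, rose by 0.20 ± 0.05, and GLE1, which activates DDX19B at the nuclear pore, by 0.18 ± 0.05. With probe sets averaged, RBM5, LSM14A and GLE1 were not called (limma adjusted p = 0.0962, 0.172 and 0.158). GPKOW had 1 probe set. MAVS, the adaptor of viral RNA sensors, differed by 0.03 ± 0.04, and EIF4G1, the scaffold of translation initiation, by −0.12 ± 0.05, and neither was called.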
